A study of Mus musculus with 12 samples.

Results

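The proteasome is the barrel-shaped protease that degrades ubiquitin-tagged proteins in the cytosol and nucleus, and its subunits are encoded by the Psma, Psmb, Psmc, Psmd and Psme genes. The members were chosen by gene name, as the genes called Psma, Psmb, Psmc or Psmd followed by a number, together with Psme1 to Psme4. This gave 43 genes of the 25655 listed in each table. The rule uses names and no measured value, though the gene set was picked with earlier results of these data known, and the same 43 genes are present in the muscle and in the bone table.

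RNA was measured in PDGFRα+ mesenchymal cells sorted from muscle and from bone of mice, and the series title says that the mice were female. The muscle knockout group (3 samples) and the bone knockout group (3 samples) carried PDGFRα-CreER with Esr1flox/flox, which removes the estrogen receptor alpha gene from cells in which the Pdgfra promoter drives the tamoxifen-activated recombinase. Of the 3 muscle control samples, 2 carried PDGFRα-CreER alone, and replicate 3 carried PDGFRα-CreER with Esr1flox/+, so that 1 floxed allele was present in a control. Of the 3 bone control samples, replicate 1 carried Esr1flox/flox without the recombinase and 2 carried PDGFRα-CreER alone. Muscle cells were sorted as negative for CD45, CD31 and Vcam1, and bone cells as negative for CD45 and CD31. Age, tamoxifen dosing and whether replicates came from separate mice are not given in the labels. The p-values therefore measure only the spread between these samples, which may be partly technical.

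The working particle has a core and caps. The core stacks rings of alpha subunits (Psma), which gate the entrance, and rings of beta subunits (Psmb), 3 of which carry the cutting sites. The regulatory particle holds a base with an ATPase ring (Psmc) that unfolds substrates, and non-ATPase subunits (Psmd) that bind ubiquitin chains and remove them. Interferon-gamma exchanges the catalytic subunits Psmb6, Psmb7 and Psmb5 for Psmb9, Psmb10 and Psmb8 and induces the cap formed by Psme1 and Psme2, which gives the immunoproteasome, known for making peptides for class I antigen presentation. Blood cells express immunoproteasome genes at high levels. Mesenchymal cells build mainly the constitutive form and make more of the inducible one when stimulated.

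Each value of a gene given here is the authors' deposited comparison of knockout with control within a tissue. The larger group mean is the higher of the 2 group means of a gene, in a unit that the headers do not name. The log2 fold change is knockout over control, so a positive value means a higher mean in knockout cells. Values per sample were not used here, because the library columns carry codes of the laboratory that no label repeats, so no value per replicate and no depth per sample is given. Calls use the authors' FDR, with a threshold of 0.05. To show the precision, a 95% interval was computed from each log2 fold change and its p on the assumption of a two-sided normal test. It is an approximation and not the authors' interval.

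For Esr1, the targeted gene, the log2 fold change was 1.02 in muscle (p = 0.404) and -2.69 in bone (p = 0.245) per the authors' deposited table. Neither passed the test, so its values do not show the deletion. The libraries read transcript ends and the labels do not say which exon is floxed, and a tag outside the deleted part checks nothing. Knockout therefore means the groups labelled so, here and below.

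No proteasome subunit gene was called in muscle or in bone. In muscle, 0 of 38 members with an FDR passed, beside 0.127% of the 7107 genes with one. At an unadjusted p under 0.05, 1 of 42 members with a p was higher in the muscle knockout, beside 6.41% of all genes, and 0 were lower, beside 5.31%. In bone, 0 of 41 members passed, beside 0.0352% of the 8534 genes with an FDR. At an unadjusted p under 0.05, 5 of 41 members were higher in the bone knockout, beside 28.8% of all genes, and 0 were lower, beside 4.2%. In both tables the share of members at an unadjusted p under 0.05 was below that of all genes, with no matching for level. In bone, at a larger group mean of 50 or more, 2 of 14 members and 43 of 1653 genes were higher at such a p. A gene that is higher in the knockout is placed at a level by its knockout mean, so this share depends on the effect itself. In muscle, at that level, 0 of 26 members and 112 of 3149 genes were. In bulk samples such as these, fewer cells of a type and less RNA per cell cannot be told apart.

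The promoters describe the gene set by sequence, which the choice by name did not use. RefSeq promoter windows on GRCm38.p6, each 300 bases long around a gene's start, were found for 36 of the 43 members, and 1 window was used per gene. Psmb5, Psmb6 and Psmd6 are shown as constitutive members and Psmb9 and Psme1 as inducible ones. These genes and the motif marked in each were picked by hand as examples. The CCAAT box, marked in Psmb9, was in 7 of 12 constitutive core genes and 1 of 5 immunoproteasome genes. The antioxidant response element core, marked in Psmb5 and Psmb6, was in 2 of those 12. Capitals mark a motif match, on either strand. They show the core of the antioxidant response element TGACNNNGC, which NFE2L1 and NFE2L2 bind, in Psmb5 and Psmb6, the ETS element CCGGAAG in Psmd6, the interferon response factor element (GAAA, any 2 bases, GAAA), read on the other strand, in Psme1, and the CCAAT box, read on the other strand, in Psmb9. The windows are chr14:54617946-54618245 (minus strand) for Psmb5, chr11:70525107-70525406 (plus strand) for Psmb6, chr14:14120896-14121195 (minus strand) for Psmd6, chr14:55578244-55578543 (plus strand) for Psme1 and chr17:34187281-34187580 (minus strand) for Psmb9.
Psmb5 promoter: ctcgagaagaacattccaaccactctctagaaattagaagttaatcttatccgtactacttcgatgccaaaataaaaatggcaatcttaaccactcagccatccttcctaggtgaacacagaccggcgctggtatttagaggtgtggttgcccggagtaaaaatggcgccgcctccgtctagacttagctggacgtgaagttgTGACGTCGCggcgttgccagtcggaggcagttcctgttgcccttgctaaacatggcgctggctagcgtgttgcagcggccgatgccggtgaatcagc
Psmb6 promoter: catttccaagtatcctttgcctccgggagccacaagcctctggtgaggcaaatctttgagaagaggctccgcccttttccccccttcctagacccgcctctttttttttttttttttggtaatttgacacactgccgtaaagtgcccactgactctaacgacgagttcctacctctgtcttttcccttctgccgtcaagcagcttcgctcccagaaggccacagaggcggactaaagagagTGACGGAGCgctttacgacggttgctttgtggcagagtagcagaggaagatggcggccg
Psmd6 promoter: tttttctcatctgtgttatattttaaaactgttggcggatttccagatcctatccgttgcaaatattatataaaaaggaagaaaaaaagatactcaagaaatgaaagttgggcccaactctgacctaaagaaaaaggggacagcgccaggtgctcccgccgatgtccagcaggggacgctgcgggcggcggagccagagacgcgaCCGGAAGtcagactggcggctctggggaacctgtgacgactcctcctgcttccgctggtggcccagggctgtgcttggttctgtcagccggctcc
Psme1 promoter: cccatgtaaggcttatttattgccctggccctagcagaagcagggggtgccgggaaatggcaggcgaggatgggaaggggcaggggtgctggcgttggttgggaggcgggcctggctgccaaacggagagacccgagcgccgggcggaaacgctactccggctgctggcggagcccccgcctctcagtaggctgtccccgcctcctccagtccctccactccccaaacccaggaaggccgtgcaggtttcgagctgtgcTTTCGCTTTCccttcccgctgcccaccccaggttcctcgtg
Psmb9 promoter: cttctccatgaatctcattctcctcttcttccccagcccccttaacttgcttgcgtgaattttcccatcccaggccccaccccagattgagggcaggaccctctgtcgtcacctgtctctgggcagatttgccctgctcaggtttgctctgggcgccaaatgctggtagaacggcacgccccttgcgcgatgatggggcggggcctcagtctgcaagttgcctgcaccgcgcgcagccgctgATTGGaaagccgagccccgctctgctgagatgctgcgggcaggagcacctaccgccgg

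The ETS element was unevenly placed over the particle. CCGGAAG was in 11 of 36 members (30.6%), against 9.12% of all 27025 promoters. It was in 9 of 17 regulatory particle genes and in both of the other activators, Psme3 and Psme4. It was in 0 of 12 constitutive core genes and 0 of 5 immunoproteasome genes. Regulatory particle genes are, here and below, all those named Psmc or Psmd, which takes in the assembly chaperones Psmd5, Psmd9 and Psmd10. The palindrome of nuclear respiratory factor 1 (GCGCA, any 1 base, GCGC) was in 6 members (16.7%) against 4.78% of all promoters. The interferon response factor element was in 4 members (11.1%) against 3.49%, and of the 5 immunoproteasome genes only Psme1 held it. The antioxidant response element core was in 6 members (16.7%) against 12.5% of all promoters, and 0 of 5 immunoproteasome genes held it. Another 3 motifs were searched in the same way, and their shares in members and in all promoters were 38.9% and 37.9% for CCAAT, 22.2% and 20.5% for the NF-kappa-B element (GGGA, any 4 bases, CC), and 11.1% and 14.2% for TATAAA. The full estrogen response element (GGTCA, any 3 bases, TGACC) was in 0 of 36 members and in 0.0666% of all promoters, which says only that these letters are not in these windows. Member promoters had a median GC content of 57.3% against 52.7% over all promoters, and a median ratio of observed to expected CpG of 0.749 against 0.389. The ETS element and the palindrome both contain CG. Their shares were not compared with promoters of a like CpG ratio, so the higher shares may not be particular to these genes. Matches are descriptions of letters and were not tested as binding sites.

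The genes are spread over the genome with a few neighbours. Positions are those of the same Ensembl gene IDs in GENCODE M21 on GRCm38, since the start positions in the tables differ from that build for all 43 members while the gene lengths agree. Chromosome 11 carries 8 members, which is 18.6% of the set against 6.44% of all listed genes, and chromosome 14 carries 6. Psmb9 (chromosome 17, 34181987 to 34187764, minus strand) lies head to head with Tap1, a subunit of the peptide transporter of antigen presentation, and their promoter windows share 275 of 300 bases. Psmb8 (chromosome 17, 34197721 to 34201454) begins 495 bases beyond the end of Tap1. Psme1 (chromosome 14, 55578123 to 55581529) and Psme2 (chromosome 14, 55587441 to 55591113) lie 5911 bases apart.

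Proteasome subunit genes were listed above 0 in both tissues, apart from Psma8 and, in bone, Psmb11, and Psma2 and Psmb4 were among the 3 highest in each. The highest larger group means per the authors' deposited table for muscle were 283.5 for Psma3, 266 for Psmb4 and 247 for Psma2. For bone, the authors' deposited table gave 245 for Psma2, 162 for Psmb4 and 159 for Psme3. Psma2 and Psma3 are alpha ring subunits, Psmb4 is a beta subunit without a cutting site, and Psme3 forms a nuclear cap that works without ubiquitin. The median over members with a p was 65.1 in muscle, against 17.3 over all genes with a p, and 37.8 in bone against 9.16. The headers do not say whether values were divided by gene length, and the libraries read transcript 3' ends, so the order of genes is an order of the listed values.

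**Figure D1:**
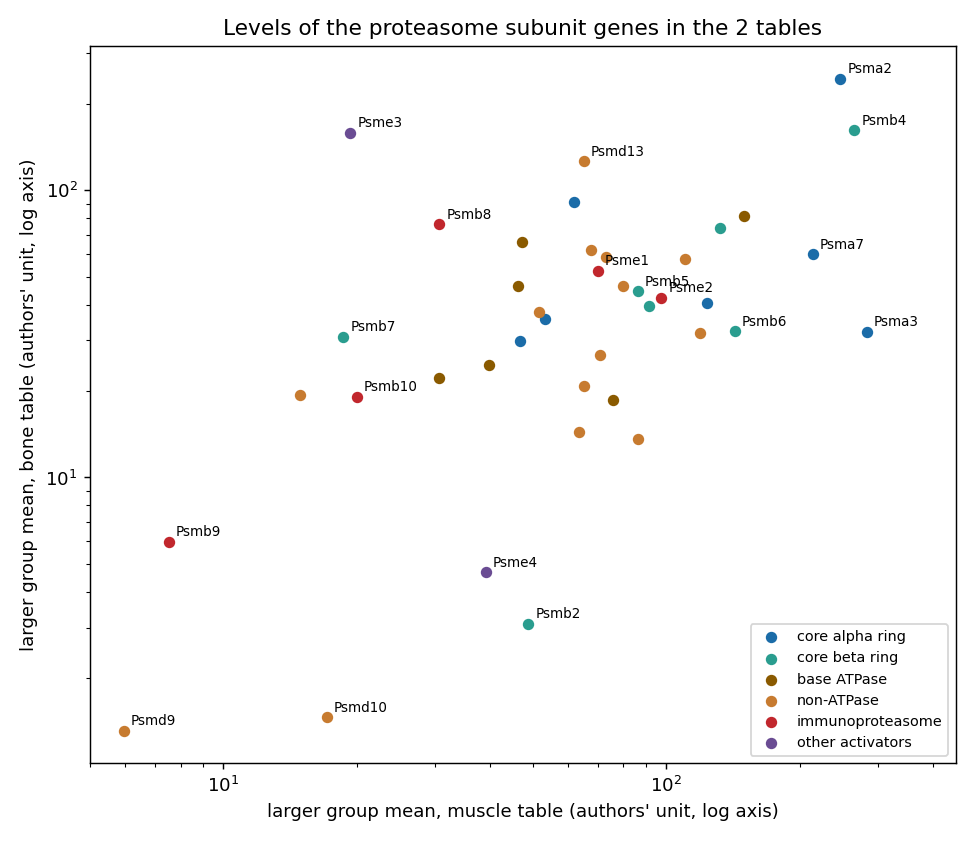
Larger group mean of each proteasome subunit gene in the muscle table (x) and the bone table (y), both in the authors' unit on log axes, with colours for the parts of the particle; Psma8 and Psmb11, listed at 0 in bone, are left out. Psma2 and Psmb4 are high in both tables, Psme3 (19.3 and 159) lies far to the bone side, and Psmb2 (48.8 and 3.10) and Psme4 (39.1 and 4.67) to the muscle side.

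Among the low members were the tissue-restricted subunits and the assembly factors Psmd9 and, in bone, Psmd10. Psma8, an alpha subunit of the testis, was listed at 0 in both tables and had no p. Psmb11, the catalytic subunit of the thymus, was listed at 0 in bone and had a larger group mean of 0.429 per the authors' deposited table for muscle. The base assembly chaperone Psmd9 followed, at 5.96 in muscle and 1.31 in bone per the authors' deposited table. Psmd10, another base chaperone, had 17.1 in muscle and 1.46 in bone per the authors' deposited table. Psmd5, the remaining base chaperone, had 14.9 and 19.4 per the authors' deposited table, and in bone Psmb2, Psme4 and Psmb9 were lower than it, at 3.10, 4.67 and 5.98. Over the 41 members above 0 in both tables the levels had a Spearman rho of 0.46 and a Pearson r of 0.58 on log2 values, a description over genes that share libraries within each table.

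The 3 exchange pairs differed in level between the tables. In the authors' deposited table for muscle, Psmb8 had a larger group mean of 30.7 and its constitutive counterpart Psmb5, the chymotrypsin-like subunit, 86.2. For bone the authors' deposited table listed Psmb8 at 76.3 and Psmb5 at 44.6, so the listed order of this pair was the opposite. Psmb9 had 7.53 in muscle beside 143 for Psmb6, the caspase-like subunit, and 5.98 in bone beside 32.3 per the authors' deposited table. Psmb10 had 20.02 in muscle beside 18.7 for Psmb7, the trypsin-like subunit, and 19.1 in bone beside 30.9 per the authors' deposited table. The 2 muscle values are close (ratio 1.07), and the bone value of Psmb10 is that of the knockout alone. No change of order is read from this pair. The cap genes Psme1 and Psme2 had 70.03 and 97.3 in muscle, and 52.5 and 42.3 in bone, per the authors' deposited table. The larger mean is that of the knockout where the log2 fold change is positive, as for Psmb10 in bone, and that of the control where it is negative, as for Psmb8 in bone. The tables were normalized separately and give no spread of these means, so the levels stand side by side without a test. The part of blood cells in the bone levels was not tested.

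In muscle, most proteasome subunit genes had a log2 fold change close to 0. Of 42 members with a p, 25 were above 0 and 17 below 0 per the authors' deposited table, with a median of 0.18 against 0.12 over all 13158 genes with a p. Values between -1 and 1 were found for 33 of 42 members (78.6%), against 45.4% of all genes. Low genes vary more, so the like-for-like share is that among genes whose larger group mean was at least 50, where it was 88.5% of 26 members and 81.2% of all genes.

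The constitutive core particle in muscle ran from -0.77 to 1.72 on the log2 scale, and none of its genes had an unadjusted p under 0.05. All 7 alpha ring genes with a p lay between -0.77 and 0.53 per the authors' deposited table, with a median of -0.25. The 8 beta ring genes outside the immunoproteasome ran from -0.75 to 1.72 there, with a median of 0.11. Psma3 had 0.17 per the authors' deposited table (p = 0.675), with an interval of -0.62 to 0.95, the narrowest of all members. Psma2 had -0.66 per the authors' deposited table (p = 0.124), with an interval of -1.51 to 0.18. The authors' deposited table gave Psmb4 -0.54 (p = 0.202, interval -1.36 to 0.29) and Psma7 -0.53 (p = 0.233, interval -1.40 to 0.34). All 4 intervals end below a log2 fold change of 1. Psmb2, a beta subunit without a cutting site, had the highest beta ring value, 1.72 per the authors' deposited table (p = 0.197, interval -0.89 to 4.33).

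The regulatory particle genes spread more widely in muscle, with no matching for level. The highest and lowest values were those of assembly chaperones, Psmd9 (5.06) and Psmd10 (-1.45), both with a larger group mean under 20. Outside the assembly chaperones the values ran from -1.05 (Psmd2) to 2.01 (Psmc4). Of 20 genes, 13 were positive per the authors' deposited table, with a median of 0.55, against 8 of 15 and 0.02 in the constitutive core. Psmd9 had the smallest p of all members, with a log2 fold change of 5.06 per the authors' deposited table (p = 0.0440) at a larger group mean of 5.96, and it had no FDR. Psmd6, a lid subunit, followed with 1.46 per the authors' deposited table (p = 0.0721, FDR = 0.914, interval -0.13 to 3.06). Psmd4, a ubiquitin receptor, had a knockout value of 2.30 times the control (p = 0.160), and the ATPase Psmc4 had a log2 fold change of 2.01 (p = 0.177), per the authors' deposited table. On the negative side stood Psmd2, a scaffold of the base, with -1.05 per the authors' deposited table (p = 0.138), and the ATPase Psmc6 with -0.73 (p = 0.211). Psmd14, the deubiquitinase of the lid, had 0.80 per the authors' deposited table (p = 0.379). None of these passed the test.

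The immunoproteasome genes were near the remaining members in muscle by count and median. Of the 5 genes, 3 were positive per the authors' deposited table, with a median of 0.36, against 22 of 37 and 0.17 in the remaining members. Psmb8 had 1.30 per the authors' deposited table (p = 0.388) and its counterpart Psmb5 0.88 (p = 0.270). For Psmb9 the authors' deposited table gave 0.90 (p = 0.668) and for Psmb6 -0.39 (p = 0.490). Psmb10 was at -0.00320 per the authors' deposited table (p = 0.998) and Psmb7 at 0.19 (p = 0.905). The cap genes had opposite signs per the authors' deposited table, with -0.72 for Psme1 (p = 0.405) and 0.36 for Psme2 (p = 0.598). The intervals of the inducible catalytic genes were wide, from -1.66 to 4.27 for Psmb8 and -3.05 to 3.04 for Psmb10, and Psmb9 had an implied standard error of 2.09, so a log2 fold change of 1 in either direction was not detectable. The other caps, the nuclear Psme3 and the large activator Psme4, had -0.58 (p = 0.713) and 0.67 (p = 0.587) per the authors' deposited table.

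**Figure D2:**
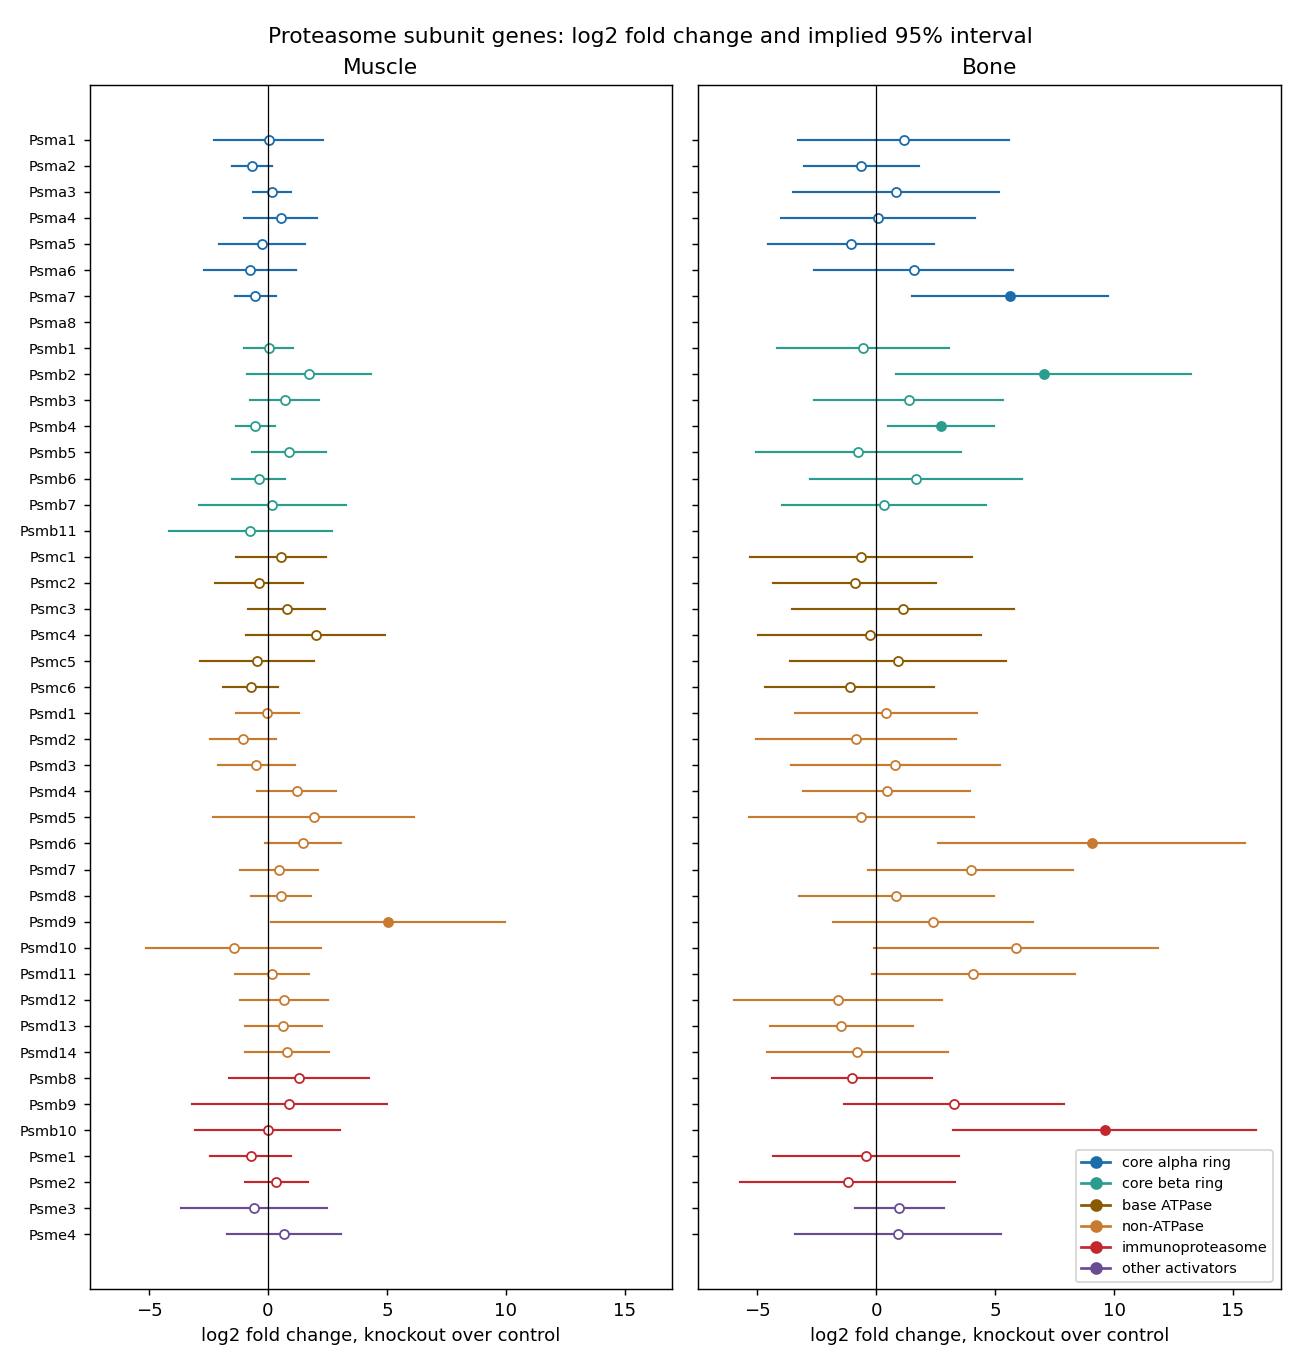
Log2 fold change of knockout over control for each proteasome subunit gene in muscle (left) and bone (right), with points for the authors' values, lines for the 95% interval computed from their p, filled points for an unadjusted p under 0.05 and colours for the parts of the particle. In muscle only Psmd9 is filled, in bone Psma7, Psmb2, Psmb4, Psmd6 and Psmb10 are, and the bone intervals have the larger median standard error (2.18 against 0.86).

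In bone, the members with the smallest p had positive values, and none was called. Psmb10, the inducible trypsin-like subunit, had a log2 fold change of 9.60 per the authors' deposited table (p = 0.00316) at a larger group mean of 19.1. Psmd6 had 9.05 per the authors' deposited table (p = 0.00605) at a larger group mean of 13.7. Psma7, an alpha ring subunit, had 5.62 per the authors' deposited table (p = 0.00774) at 60.05. Psmb4 had 2.74 per the authors' deposited table (p = 0.0159) at 162, and Psmb2 7.04 (p = 0.0259) at 3.10. The first 3 share an FDR of 0.0784 per the authors' deposited table, and those of Psmb4 and Psmb2 are 0.0822 and 0.0920. At an FDR under 0.1 these 5 of 41 members (12.2%) would be counted, beside 32.2% of all bone genes. That background is mostly low genes. Under a larger group mean of 20 the counts were 3 of 10 members and 2229 of 5020 genes. At 20 to under 50 they were 0 of 17 and 409 of 1861. At 50 or more they were 2 of 14 and 113 of 1653. Those 2 members, Psma7 and Psmb4, are placed in that class by their knockout mean, the group in which they are higher. The share of members at that level is therefore no result about the members.

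Some of these bone values repeat the level of the gene. In the plot of fold change against level, many low genes lie on a line along which the log2 fold change exceeds the log2 of the larger group mean by a nearly fixed amount. A band of 5 to 5.5 for that excess, chosen after the plot was seen, held 2754 of 10518 bone genes (26.2%) and 1945 of the 3032 that were higher at an unadjusted p under 0.05 (64.1%). It held 4 of 41 members (9.76%), namely Psmb10 (5.34), Psmd6 (5.28), Psmb2 (5.41) and Psmd10 (5.32). Along such a line the fold change is a fixed multiple of the larger mean, so it repeats the level. Whether the lower group was at 0 for these genes was not tested. Psma7 and Psmb4 lie off the band, at -0.29 and -4.60.

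Psmb4 and Psma7 have values off the band. Psmb4 had a knockout value of 6.66 times the control per the authors' deposited table for bone, with an interval on the log2 scale of 0.51 to 4.96. For Psma7 the ratio was 49.3 per the authors' deposited table, with an interval on the log2 scale of 1.48 to 9.76. Both were negative in muscle, at -0.54 and -0.53. Neither passed the authors' FDR in either tissue.

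**Figure D3:**
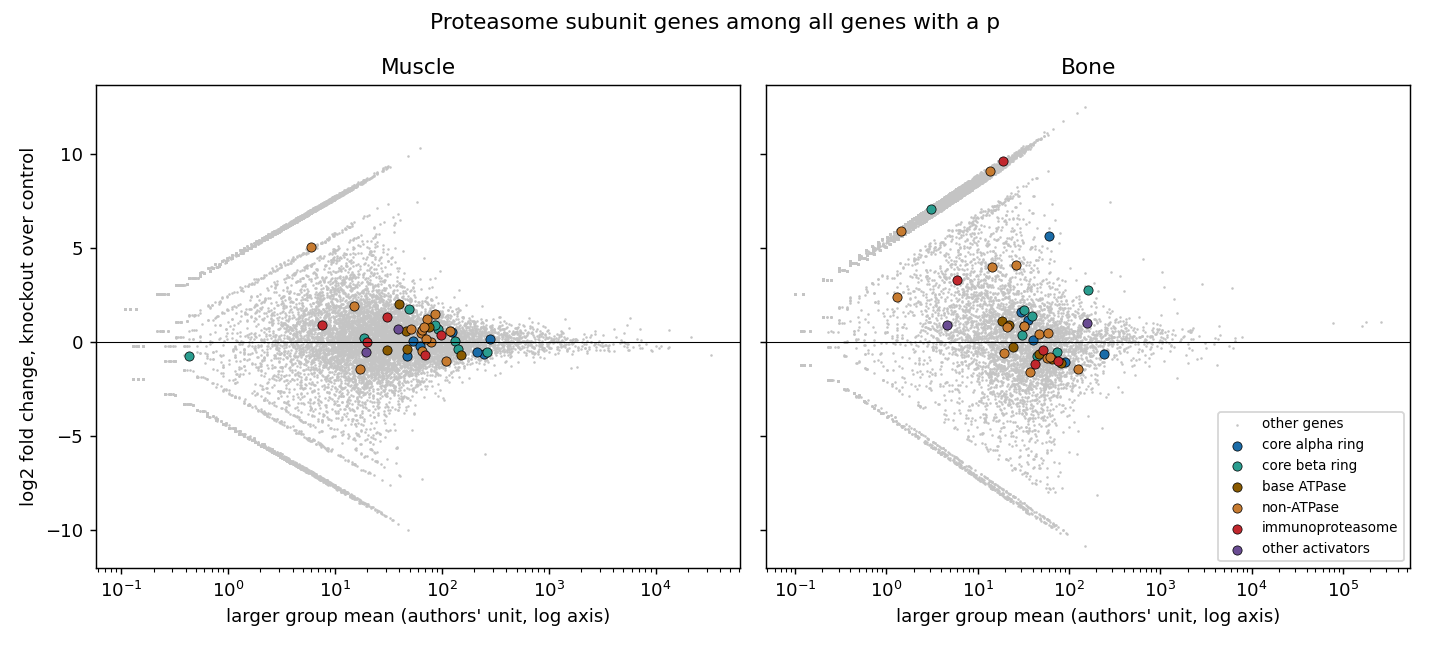
Log2 fold change of knockout over control (y) against the larger group mean on a log axis (x) for every gene with a p in muscle (left) and bone (right), with grey points for other genes and colours for the proteasome subunit genes. In bone Psmb10, Psmd6, Psmb2 and Psmd10 lie on the upper diagonal band, while Psma7 and Psmb4 lie off it.

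By part of the particle, the bone values were mixed. Of 14 constitutive core genes with a p, 10 were positive per the authors' deposited table, with a median of 0.99, and 3 had an unadjusted p under 0.05. Of 20 regulatory particle genes 11 were positive, with a median of 0.42, and 1 had such a p. Among its ATPases, 2 of 6 were positive per the authors' deposited table, from -1.12 (Psmc6) to 1.12 (Psmc3). Beside Psmd6, the lid genes Psmd7 and Psmd11 had 3.97 (p = 0.0709) and 4.08 (p = 0.0610) per the authors' deposited table. The members of smallest p among the negative ones were lid genes, Psmd13 with -1.48 (p = 0.336) and Psmd12 with -1.60 (p = 0.474) per the authors' deposited table. Psmc6 (p = 0.534), the alpha ring gene Psma5 with -1.08 (p = 0.543) and Psmb8 came next per the authors' deposited table.

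Immunoproteasome genes in bone had both the highest value of all members and 3 negative ones. Beside Psmb10 at 9.60, Psmb9 had 3.26 per the authors' deposited table (p = 0.166, interval -1.36 to 7.88). Psmb8 had -1.02 per the authors' deposited table (p = 0.550, interval -4.37 to 2.33). The cap genes Psme1 and Psme2 had -0.42 (p = 0.832) and -1.21 (p = 0.599) per the authors' deposited table. The median of the 5 genes was -0.42, against 0.81 in the other 36 members with a p. The constitutive counterparts Psmb5, Psmb6 and Psmb7 had -0.76 (p = 0.730), 1.67 (p = 0.462) and 0.33 (p = 0.879) per the authors' deposited table. Tap1, which shares promoter bases with Psmb9, had 7.65 per the authors' deposited table (p = 0.0185, FDR = 0.0833), with 4.43 as its larger group mean. Its bone value lies just above the upper limit of the band, at 5.505. In muscle the signs of this pair were opposite per the authors' deposited table, with -0.72 for Tap1 (p = 0.728) and 0.90 for Psmb9 (p = 0.668). Psme3 had 0.97 (p = 0.307, interval -0.89 to 2.83), the narrowest interval of the bone members, and Psme4 0.90 (p = 0.685) per the authors' deposited table.

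The direction in bone moved with level, in the members as in all genes. Of 10 members with a larger group mean under 20, 9 were positive per the authors' deposited table (90%), against 80.8% of all genes at that level. At 20 to under 50, 12 of 17 were positive (70.6%), against 50.4%. At 50 or more, 4 of 14 were positive (28.6%), against 44.2%, and their median was -0.72 against -0.20 over all genes at that level. Over all 41 members, 25 were positive (61%), with a median of 0.79, against 69.7% and 2.51 over all genes. The list as a whole therefore has no single direction in bone, and its median was negative at -0.72 among the 14 members with a larger group mean of 50 or more.

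**Figure D4:**
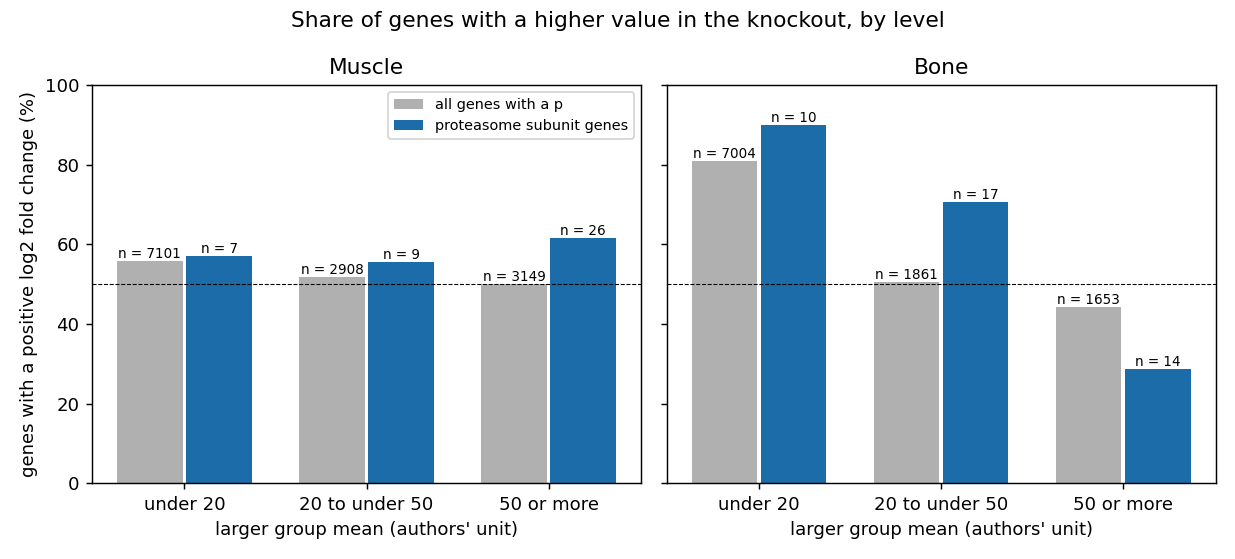
Percent of genes with a positive log2 fold change (y, from 0) in 3 classes of larger group mean (x), for all genes with a p (grey) and the proteasome subunit genes (blue), in muscle (left) and bone (right), with the number of genes above each bar and a dashed line at 50%. In bone the members go from 90% under 20 to 28.6% at 50 or more, and in muscle they stay between 55.6% and 61.5%.

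The bone comparison was the less precise for these genes. The standard error implied by fold change and p had a median of 2.18 over members in bone and 0.86 in muscle, on the log2 scale. Over all genes with a p it was 2.54 and 1.91. Across members it was lower at higher larger group means, with a Spearman rho of -0.98 over 42 genes in muscle and -0.82 over 41 in bone, a description over genes of the same libraries. Whether library depth or cell number moved with these errors was not tested.

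The effects in the 2 tissues were compared member by member, and no difference was called. Over the 9598 genes with a p in both tables, a normal-approximation test of bone effect minus muscle effect with Benjamini-Hochberg adjustment called 0 members and 0% of all genes. At an unadjusted p under 0.05 it counted 5 of 41 members (12.2%), beside 24.6% of all genes. The member of smallest p was Psma7, with a difference of 6.15 on the log2 scale and an approximate 95% interval of 1.92 to 10.4. Psmb4 had a difference of 3.27 (interval 0.90 to 5.64). Psmb10, Psmd6 and Psmd10, which lie on the band, had 9.60, 7.59 and 7.32. Of the 41 members, 15 were positive in both tissues, 6 negative in both, 10 positive in muscle alone and 10 positive in bone alone. For Psmb8 the difference was -2.33 (interval -6.80 to 2.14), so the opposite signs in muscle and bone were within its error.

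Genes that build, supply and regulate the particle were read from lists chosen by function. None of their genes passed the authors' FDR in either tissue. Their counts at an unadjusted p under 0.05 stand beside 6.41% of all genes higher and 5.31% lower in muscle, and 28.8% higher in bone, and in lists this short a count near those shares is no result about the list. Of 7 matched assembly chaperones and regulators, 3 of 7 were positive in muscle and 3 of 6 in bone, and 0 had an unadjusted p under 0.05. Pomp, the maturation factor of the core, had -0.18 per the authors' deposited table for muscle (p = 0.704), and Akirin2, which brings proteasomes into the nucleus, -0.69 (p = 0.330). Of 13 matched receptors and deubiquitinases, 2 were lower and 0 higher in muscle at an unadjusted p under 0.05, and 0 were lower and 3 higher in bone (23.1%, beside 28.8% of all genes). In muscle these were Ecpas, a proteasome scaffold, with -2.23 (p = 0.0260), and Zfand5, an activator of the particle, with -0.74 (p = 0.0450), per the authors' deposited table. In bone they were Ube3c, Ubqln4 and Uchl5, with 8.73, 7.99 and 7.62 per the authors' deposited table where their larger group means were 9.93, 7.53 and 5.37. All 3 lie in the band in which the fold change repeats the level, at 5.42, 5.08 and 5.20.

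Of 7 ubiquitin genes and activating enzymes, 1 had an unadjusted p under 0.05, the activating enzyme Uba1 in muscle, with 1.84 per the authors' deposited table (p = 0.0173, FDR = 0.533). Ubb, a polyubiquitin gene, had 0.10 in muscle (p = 0.742) and 0.57 in bone (p = 0.336) per the authors' deposited table. Of 9 genes on the transcription list, 0 had such a p in muscle and 2 of 8 in bone, both higher (25%, beside 28.8% of all genes). These were Ngly1, which processes NFE2L1, with 9.59 (p = 0.00411) and Nfe2l2, the oxidative stress factor, with 5.67 (p = 0.0160) per the authors' deposited table. Ngly1 lies in the same band, at 5.10, and Nfe2l2 off it, at 0.75. Of the p97 segregase and its adaptors, which extract proteins for degradation, 1 of 9 was higher at such a p in muscle and 2 of 7 in bone (28.6%, beside 28.8% of all genes). They were Derl1 in muscle, with 1.58 (p = 0.0159), and Ubxn4 and Nsfl1c in bone, with 6.26 (p = 0.00693) and 5.92 (p = 0.0223), per the authors' deposited table.

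Class I antigen processing genes, the partners of the immunoproteasome, had 1 higher and 1 lower of 11 at an unadjusted p under 0.05 in muscle, and 3 higher of 10 in bone (30%, beside 28.8% of all genes). Erap1, which trims peptides, had 9.17 in muscle (p = 0.00201, FDR = 0.232) and 9.26 in bone (p = 0.0051, FDR = 0.0784) per the authors' deposited table, and its larger group means were 29.9 and 14.9. In bone Erap1 lies in the band, at 5.37, and Tap1 lies just above the upper limit of the band. In muscle the largest excess of any gene was 4.97, so the band cannot flag a muscle value. Erap1 had an excess of 4.27 there, and whether its muscle fold change also repeats the level was not tested. Nlrc5, an activator of class I genes, had -7.56 in muscle (p = 0.0197) per the authors' deposited table and was listed at 0 in bone. In muscle its larger group mean was 8.99 and it had no FDR. B2m, the light chain of class I molecules, had 0.50 in muscle (p = 0.0833) per the authors' deposited table, at 1330. Besides Tap1, the class I heavy chain H2-K1 had 1.87 in bone (p = 0.0477) per the authors' deposited table. Of the interferon response genes, 1 of 14 was higher at such a p in muscle, Gbp3, with 8.13 (p = 0.0112) per the authors' deposited table. Gbp3 had no FDR there, a larger group mean of 14.7 and an excess of 4.26. Whether its fold change repeats the level was not tested. In bone 3 of 12 were higher at such a p (25%, beside 28.8% of all genes), per the authors' deposited table. Among these bone genes, the authors' deposited table gave 5.04 for Ifngr1 (p = 0.0282), a receptor chain, and 6.39 for Stat2 (p = 0.0445), a signalling component of the interferon response. Stat2 had a larger group mean of 1.82 and lies just above the upper limit of the band, at 5.53. Ifngr1 lies off the band, at 2.34.

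Leukocyte, macrophage and neutrophil markers were also positive in the bone comparison. All 10 leukocyte and macrophage markers and all 10 neutrophil markers were positive in bone per the authors' deposited table, 5 and 8 of them at an unadjusted p under 0.05 and 1, Ltf, at the authors' FDR. Over all bone genes, 69.7% were positive and 28.8% were higher at such a p. That background is mostly low genes, while the median larger group mean was 46.7 in the leukocyte and macrophage list and 469 in the neutrophil list. Among bone genes at 50 or more, 44.2% were positive and 43 of 1653 were higher at such a p. Of the 5 leukocyte and macrophage markers 3 lie in the band, and of the 8 neutrophil markers 1 does. Of the 10 mesenchymal markers, 7 were positive in bone, 2 of them at such a p (Pdgfrb, with 8.27 and p = 0.00162, and Mfap5, with 6.72 and p = 0.0388), and 9 were positive in muscle, 3 of them at such a p, per the authors' deposited table. Mfap5 had a larger group mean of 2.22 in bone and lies just above the upper limit of the band, at 5.57. Pdgfrb lies off the band, at 3.19. In muscle Col1a2, a chain of type I collagen, passed the authors' FDR, with 1.27 and FDR = 0.00261 per the authors' deposited table. The summed larger group means of the leukocyte and neutrophil lists were 1948 and 12582 in bone, against 95.4 and 35.1 in muscle, where Ltf, Elane and Mpo were at 0. The 7 matched erythroid markers summed to 687409 in bone, beside 1.17e+06 over all genes of that tissue, and to 3931 in muscle. Of these 7, 6 were positive in bone and 0 had such a p there, and 2 were lower at such a p in muscle. The 6 B lineage markers summed to 7.39 in bone, with 4 of them at 0, and the other 2 were higher at such a p and lie in the band. The 10 mesenchymal markers summed to 1801 in bone and 29607 in muscle, all above 0 in both. In bone the 687409 of the erythroid list and the 12582 of the neutrophil list are both above the 1801 of the mesenchymal list. Pdgfra itself, the sorted marker, had a larger group mean of 493.5 in muscle and 8.60 in bone per the authors' deposited table. Endothelial markers summed to 5.98 in bone with 4 of 6 at 0, and to 40.01 in muscle with none at 0. Muscle fibre and satellite cell markers summed to 173 in muscle, where Pax7 and Myf5 were at 0, and to 71.7 in bone, where Pax7, Myf5, Ckm and Myh4 were at 0. The part of blood cells in the bone values of the members was not tested. That holds for the fold changes of Psmb10, Psma7 and Psmb4 and for the levels, with the order of Psmb8 and Psmb5 among them.

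Several members share their transcript end with a copy, so their values are less certain. The last 300 bases of the coding transcripts matched another gene on the same strand at 95% identity or more over at least 100 bases for 11 of 43 members. Psme2 matched Psme2b over 300 bases at 99% identity, Psmd11 matched Gm14048 over 300 bases at 99.3%, Psma4 matched Gm6542 over 300 bases at 98.3% and Psmb5 matched Gm3375 over 229 bases at 99.6%. Psma3, Psma5, Psmb3, Psmb11, Psmd1, Psmd2 and Psme1 also had such a match. The ends of 5 members, among them Psmb7 with Nek6 and Psmb8 with Gm20496, matched a gene on the opposite strand, and whether the counting used strand was not given in the sources used here. Psmb10, Psmd6, Psma7, Psmb4 and Psmb2, the bone members of smallest p, had no match of either kind.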

How the data were processed

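PDGFRα+ cells of 12 samples in 4 groups of 3 were profiled by 3' end sequencing of mRNA, according to the labels' protocols. The submitters' processing notes name GRCm38 and mm10. For aligner, counter and test, the method was not given in the sources used here. Each deposited table holds, per the file headers, the authors' log2 fold change of knockout over control with its p-value, unadjusted and adjusted by FDR and Bonferroni. The larger group mean and the signed fold are scores in the deposited tables, and the header names no unit. Another 48 columns of per-library values match no label and were left unused, so the fits planned on library counts were not run and depth per sample is unknown.

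Members and gene lists were chosen with earlier results of these data known. Named were all members past FDR 0.05, the 5 of smallest p per direction and table, the immunoproteasome genes and their counterparts, Psme3, Psme4, the 3 highest and lowest levels, and up to 4 genes of smallest p per list. Other members, and Tap1, were named after their values were seen. Standard errors were taken as the log2 fold change over the normal quantile of its p. Adjusted values were computed with Benjamini-Hochberg over all genes (Python 3.11.15, scipy 1.17.1). The adjustment and the test between tissues were run on simulated effects drawn from a normal distribution. Such data cannot check the assumption that the authors' p-values come from a normal test. Recomputing the deposited FDR returned it within 0.000995 in muscle and 0.000142 in bone. Transcript ends were compared with blastn. One gene of the interferon list and one promoter motif are not reported here.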

Additional observations from a re-analysis of the deposited data

How the results depend on the processing

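No proteasome gene passed in muscle under any of the 5 alternatives run: Benjamini-Hochberg over all genes with a p, the authors' Bonferroni p, an FDR threshold of 0.1, and adjustment over genes whose larger group mean was 10 or more, or 50 or more. In bone the count was 5 at an FDR threshold of 0.1, where 2751 of 8534 genes passed, and 2 when adjusted over genes whose larger group mean was 10 or more, where 713 of 5063 passed. Those 2 were Psmb10 and Psmd6, each at an adjusted p of 0.0499, and the remaining 3 bone alternatives gave 0. Psmb10 and Psmd6 passed this level filter through their knockout mean, the group in which they are higher. Both lie in the band in which the fold change repeats the level, at 5.34 and 5.28. The count of differences between tissues stayed at 0 for genes whose larger group mean was 10 or more in both tables (smallest adjusted p of a member 0.0816). The bone median log2 fold change of 0.79 became 0.37 for members whose larger group mean was 10 or more, -0.72 at 50 or more, 0.024 after subtracting the median of genes in the same decile of larger group mean, and -1.72 after subtracting the median of all genes. The muscle median of 0.18 became 0.059 after the last of these, an alternative chosen after seeing the data, and moved by less than 0.1 in the others. The cause of these shifts was not tested. No paired analysis was possible because no library column could be matched to a replicate number, and for the same reason leaving out replicates, DESeq2 and a fit with no filter on low counts were not run. Without depth per sample, low bone levels limit what can be detected.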
